A study of Homo sapiens with 6 samples.

Results

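Epithelial–mesenchymal transition (EMT) is driven by a small set of transcription factors, and vimentin is the filament protein most often used to read it out. The 9 genes followed here were SNAI1, SNAI2, SNAI3, ZEB1, ZEB2, TWIST1, TWIST2, PRRX1 and VIM. They were picked by name, with earlier results of these data known, and are the 9 of 24462 gene symbols that carry these names. RNA-seq was performed in PC3 cells, a line derived from a bone metastasis of prostate cancer. Cells received 80 nM of non-targeting siRNA (si-Control, 3 libraries) or of siRNA against CITED2 (si-CITED2, 3 libraries) and were analysed 72 h after transfection. The study's methods list 1 siRNA sequence for CITED2, so effects of that sequence on other transcripts and effects on CITED2 cannot be told apart. The comparison addresses how the EMT programme of PC3 cells differed when CITED2, a transcriptional coregulator, was targeted.

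SNAI1 (Snail), SNAI2 (Slug) and SNAI3 are zinc-finger repressors that bind E-boxes, short DNA motifs found in the promoters of epithelial genes such as CDH1, which encodes E-cadherin. ZEB1 and ZEB2 bind the same kind of motif through zinc-finger clusters at both ends of the protein, and the miR-200 family holds their mRNAs down in epithelial cells. TWIST1 and TWIST2 are basic helix-loop-helix factors, PRRX1 is a homeobox factor, and vimentin forms the intermediate filaments of mesenchymal cells.

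The libraries held 19494137 to 28911542 counted reads, so the 3 counts taken as the smallest detectable number were 0.104 to 0.154 CPM. CPM express each count relative to the size of its library, here after TMM normalization, and ± is the SD over 3 libraries. CITED2 itself went against the label. Its level was 36.5, 37.9 and 32.8 CPM in si-Control and 46.0, 39.1 and 41.8 CPM in the libraries labelled si-CITED2. All 3 libraries labelled si-CITED2 were above all 3 si-Control libraries, with a log2 fold change of 0.24 ± 0.0744 (SE) and an adjusted p of 0.0363 (edgeR), and this call was lost in 5 of 13 alternative settings. These were library size without TMM (0.22) and leaving out si-Control replicate 1 or 3 or si-CITED2 replicate 1 or 3 (0.17 to 0.25). A gene-level count taken at 1 time does not show the protein. For PC3 cells under this siRNA the paper reports a knockdown checked by CITED2 immunoblot, a protein measure that these counts cannot repeat. Every direction given here is that of the libraries labelled si-CITED2, whose knockdown the CITED2 mRNA did not show. The keratin and epithelial markers of the line, KRT8, KRT18, KRT19, EPCAM and CDH1, passed the filter.

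Of the 9 genes, 7 passed the filter on low counts and were tested among 16314 genes, and 2 (TWIST1 and PRRX1) were too low to judge. SNAI1, ZEB1 and VIM rose in the libraries labelled si-CITED2, none of the 7 fell, and SNAI2, SNAI3, ZEB2 and TWIST2 did not pass the test. Thus 3 of 7 were called higher at an adjusted p under 0.05, where 9.36% of all tested genes were, and 0 of 7 were called lower, where 8.09% were. At an unadjusted p under 0.05, 4 of the 7 were higher and 0 lower (edgeR), against 14.8% and 14.2% of all tested genes, and DESeq2 also called 0 lower. The 2 groups did not overlap for 5 of the 7, each time with the libraries labelled si-CITED2 above, against 16.4% of all tested genes in that direction and 16.1% in the opposite one. The median log2 fold change of the 7 was 0.25, against -0.0014 over all tested genes. The libraries were said to come from independent experiments, and the p-values measure the spread between these 3 and 3 libraries only. In bulk RNA, fewer cells with a transcript and less of it per cell cannot be told apart.

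The order of the levels is best read per transcript length. In CPM per kilobase of the longest protein-coding transcript, VIM stood far above the rest in si-Control, at 597 ± 17.8, and ZEB1 was next at 5.81 ± 0.126, a 103-fold gap. TWIST2 (3.42 ± 0.137) and SNAI1 (1.91 ± 0.255) followed. These 4 genes kept the same order by the length of all exons together. SNAI3 (0.578 ± 0.124) and SNAI2 (0.362 ± 0.0784) came next, then ZEB2 (0.204 ± 0.0116), TWIST1 (0.112 ± 0.00875) and PRRX1 (0.0329 ± 0.0216). In si-Control no 2 neighbours in this order overlapped across libraries. In the libraries labelled si-CITED2 the ranges of TWIST2 and SNAI1, of SNAI3 and SNAI2, and of ZEB2 and TWIST1 did overlap. By the length of all exons together, TWIST1 came before ZEB2, so that pair has no settled order. Per length, ZEB1 was therefore the most abundant of the 8 transcription factors in both groups, and its paralog ZEB2 was among the lowest.

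**Figure D1:**
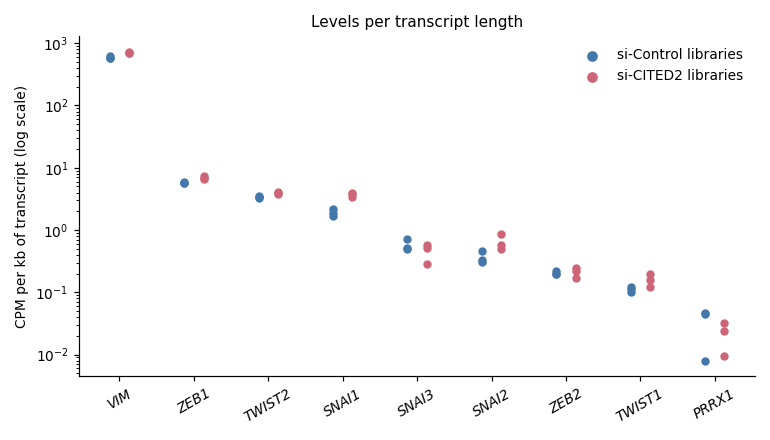
Level of each gene in CPM per kilobase of its longest protein-coding transcript (log axis), 1 point for each library. VIM lies at 597 in si-Control and ZEB1 at 5.81, and PRRX1 is lowest at 0.0329.

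The motif these repressors read was looked up in the promoters that RefSeq (GRCh38.p14) holds for the genes named in the lists described here. The E-box CACCTG, which reads CAGGTG on the opposite strand, was searched on both strands in windows from 250 bases before to 50 after each start. It was present in 20.6% of 35116 windows, and 24.1% of 27305 genes had it in at least 1 window. Windows were matched for 5 of the 9 genes (VIM, ZEB1, ZEB2, TWIST2 and PRRX1). ZEB1 held the motif in 2 of its 7 windows, and VIM, ZEB2, TWIST2 and PRRX1 held none. Of the 8 epithelial repression targets that fell, listed with the targets of the repressors below, 4 had windows and all 4 held the motif, as did 4 of the 7 with windows that did not pass the test. CDH1 had no window. The 4 promoters printed here were picked by their calls, and place this motif upstream of a factor that rose, ZEB1, and of 3 epithelial genes that fell. These 3 are TJP3, a tight junction protein, MUC1, a membrane mucin, and DSP, desmoplakin. CLDN3, which also fell and held the motif, is not printed. Each is the 250 bases before the start in the window with the most motifs, with the motif in capitals.
ZEB1: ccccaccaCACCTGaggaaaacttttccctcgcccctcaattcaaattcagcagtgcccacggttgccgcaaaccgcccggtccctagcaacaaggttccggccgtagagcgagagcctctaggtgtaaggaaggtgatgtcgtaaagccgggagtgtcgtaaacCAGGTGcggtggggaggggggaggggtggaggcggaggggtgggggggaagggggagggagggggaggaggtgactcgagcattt
TJP3: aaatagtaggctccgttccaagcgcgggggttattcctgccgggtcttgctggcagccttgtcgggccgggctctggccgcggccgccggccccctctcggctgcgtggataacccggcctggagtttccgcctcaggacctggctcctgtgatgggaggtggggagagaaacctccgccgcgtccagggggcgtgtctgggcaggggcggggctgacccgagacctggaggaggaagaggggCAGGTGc
MUC1: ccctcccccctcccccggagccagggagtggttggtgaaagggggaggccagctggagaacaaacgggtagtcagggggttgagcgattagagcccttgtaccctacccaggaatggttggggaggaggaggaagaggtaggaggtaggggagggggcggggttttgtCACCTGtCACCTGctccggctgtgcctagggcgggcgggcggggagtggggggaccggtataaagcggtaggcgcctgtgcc
DSP: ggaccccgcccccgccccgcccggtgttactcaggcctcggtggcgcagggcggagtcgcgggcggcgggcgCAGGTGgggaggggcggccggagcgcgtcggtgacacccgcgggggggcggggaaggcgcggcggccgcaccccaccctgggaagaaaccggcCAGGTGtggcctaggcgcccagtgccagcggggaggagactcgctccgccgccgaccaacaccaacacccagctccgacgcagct
The ZEB1 stretch is chr10:31318966-31319215 on the plus strand and the TJP3 stretch chr19:3721487-3721736 on the plus strand. The MUC1 stretch is chr1:155192916-155193165 on the minus strand and the DSP stretch chr6:7541421-7541670 on the plus strand. The motif begins 7 bases before the TJP3 start, 82 and 75 before the MUC1 start, 178 and 85 before the DSP start, and 242 and 85 before the ZEB1 start. That ZEB1 window held a further motif 33 bases after the start, outside the stretch printed. A match is a description of these letters and does not show that a factor was bound.

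SNAI1 had the largest log2 fold change of the 7 tested genes. Its counts were 97, 82 and 64 in si-Control and 127, 141 and 135 in the libraries labelled si-CITED2, or 3.66, 2.80 and 3.20 CPM against 6.55, 5.72 and 6.28 CPM. The lowest library labelled si-CITED2 was above the highest si-Control library by more than the spread within either group. Mean levels were 3.22 ± 0.429 and 6.18 ± 0.422 CPM (n = 3 each), a log2 fold change of 0.94 ± 0.153 (SE), or 1.92-fold with a 95% interval of 1.53 to 2.40 (edgeR adjusted p = 0.000326). Of all tested genes, 98.2% had a lower log2 fold change, while SNAI1 was of low abundance, at the 27.1 percentile of level. SNAI1 rests on 64 to 141 reads a library, and over 13 alternative settings its log2 fold change ranged from 0.84 to 1.05 and the call was kept.

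SNAI2, the paralog also known as Slug, had fewer reads. The si-Control libraries held 20, 23 and 22 counts and the libraries labelled si-CITED2 held 40, 34 and 26, which is 0.755, 0.786 and 1.10 CPM against 2.06, 1.38 and 1.21 CPM. The groups did not overlap, but the highest si-Control library and the lowest library labelled si-CITED2 lay close together. The log2 fold change was 0.82 ± 0.299 (SE; 95% interval 0.19 to 1.46), with an unadjusted p of 0.0139 and an adjusted p of 0.0704 in edgeR. The interval of SNAI2 includes the estimate for SNAI1, and SNAI2 stayed outside the threshold in all 13 alternative settings, with an adjusted p of 0.0509 to 0.280. Within each library the SNAI2 to SNAI1 ratio of counts was 0.210, 0.285 and 0.349 in si-Control and 0.318, 0.244 and 0.196 in the libraries labelled si-CITED2. These ratios overlapped, with a difference of -0.15 on the log2 scale (exact two-sided permutation p = 0.7), so no unequal change of the 2 paralogs was detectable at this depth.

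SNAI3, the least studied Snail family member, had an estimate in the opposite direction. Its counts were 23, 26 and 25 in si-Control and 19, 12 and 19 in the libraries labelled si-CITED2, or 0.868, 0.889 and 1.25 CPM against 0.979, 0.487 and 0.884 CPM. The groups overlapped. The log2 fold change was -0.36 ± 0.337 (SE) with a 95% interval of -1.07 to 0.36 (edgeR adjusted p = 0.544), which spans falls and rises. Its antisense neighbour SNAI3-AS1, which shares 163 exon bases with it, was not called either (log2 fold change 0.20, adjusted p = 0.747).

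ZEB1 rose by less but at a higher level. The si-Control libraries had 960, 1045 and 746 counts and the libraries labelled si-CITED2 had 803, 1043 and 992, or 36.2, 35.7 and 37.3 CPM against 41.4, 42.3 and 46.1 CPM. All 3 libraries labelled si-CITED2 were above the highest si-Control library. Means were 36.4 ± 0.789 and 43.3 ± 2.52 CPM, a log2 fold change of 0.25 ± 0.0638 (SE), or 1.19-fold with a 95% interval of 1.08 to 1.31 (edgeR adjusted p = 0.0112). The call was lost without si-Control replicate 2 (log2 fold change 0.24, adjusted p = 0.0531) and without si-CITED2 replicate 3 (0.20, adjusted p = 0.0788), so it lies near the threshold. ZEB1-AS1, on the opposite strand and sharing 366 exon bases, had a log2 fold change of 0.22 that did not pass (adjusted p = 0.521).

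ZEB2 did not pass the test. Its counts were 50, 61 and 38 in si-Control and 32, 57 and 46 in the libraries labelled si-CITED2, or 1.89, 2.08 and 1.90 CPM against 1.65, 2.31 and 2.14 CPM. The si-Control values lay inside the range of the libraries labelled si-CITED2, and the log2 fold change was 0.06 ± 0.215 (SE), with a 95% interval of -0.40 to 0.52 (edgeR adjusted p = 0.888). A change as large as that of ZEB1 lies within this interval. The ratio of ZEB1 to ZEB2 counts was 19.0, 17.0 and 19.4 in si-Control and 24.7, 18.1 and 21.3 in the libraries labelled si-CITED2, and these overlapped (difference 0.20 on the log2 scale, exact two-sided permutation p = 0.3).

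TWIST2 carried most of the TWIST reads. Its counts were 133, 139 and 93 in si-Control and 111, 129 and 118 in the libraries labelled si-CITED2, or 5.02, 4.75 and 4.65 CPM against 5.72, 5.23 and 5.49 CPM. The groups did not overlap, with means of 4.81 ± 0.192 and 5.48 ± 0.245 CPM. The log2 fold change of 0.19 ± 0.135 (SE; 95% interval -0.10 to 0.47) did not pass (edgeR adjusted p = 0.406). TWIST1, the paralog most studied in EMT, was counted 5, 5 and 4 times across si-Control libraries and 5, 5 and 7 times across those labelled si-CITED2. The summed counts of 14 and 17 give a depth-corrected ratio of 1.40 with an exact 95% interval of 0.651 to 3.08, which covers counting error only. PRRX1, with 5, 1 and 4 counts against 2, 1 and 3, gave 10 and 6 reads in all and a ratio of 0.694 with an interval of 0.207 to 2.11. Neither TWIST1 nor PRRX1 was tested, and a change in either was not detectable at this depth.

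VIM had among the most reads of all tested genes, at the 99.7 percentile of level. The si-Control libraries held 34920, 36597 and 25080 counts and the libraries labelled si-CITED2 held 30402, 37095 and 32181, or 1318, 1251 and 1253 CPM against 1567, 1505 and 1497 CPM. The lowest library labelled si-CITED2 was well above the highest si-Control library. Means were 1274 ± 38.0 and 1523 ± 38.6 CPM, a log2 fold change of 0.26 ± 0.0453 (SE), with a 95% interval of 1.12 to 1.28 for the fold change (edgeR adjusted p = 0.000655). With this many reads, counting error is small and the spread between libraries sets the interval. Over 13 alternative settings the log2 fold change was 0.24 to 0.28 and the call was kept. VIM-AS1, transcribed from the opposite strand, stood at 244, 239 and 245 CPM in si-Control and 274, 293 and 283 CPM in the libraries labelled si-CITED2 (log2 fold change 0.22 ± 0.0469 SE, adjusted p = 0.00284). VIM-AS1 shares 641 exon bases with VIM, which is 32.2% of its own exon bases, and whether the counting used strand is not given in the sources used here, so reads of the 2 genes cannot be told apart there. The ratio of VIM to VIM-AS1 counts, added after their values were seen, was 5.39, 5.24 and 5.12 against 5.72, 5.14 and 5.29 and overlapped (exact two-sided permutation p = 0.6).

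**Figure D2:**
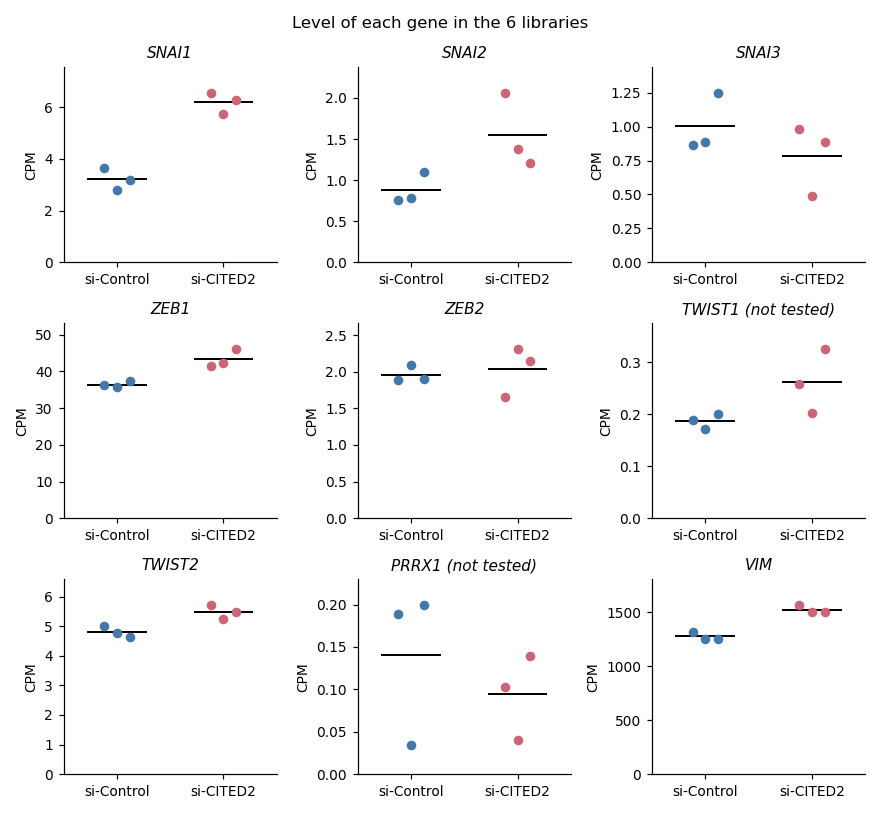
TMM-normalized CPM of each of the 9 genes in the 3 si-Control and the 3 libraries labelled si-CITED2, 1 point for each library and a line at the group mean. SNAI1 points lie at 2.80 to 3.66 CPM against 5.72 to 6.55 CPM, and VIM points at 1251 to 1318 CPM against 1497 to 1567 CPM, while those of ZEB2 and SNAI3 overlap.

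**Figure D3:**
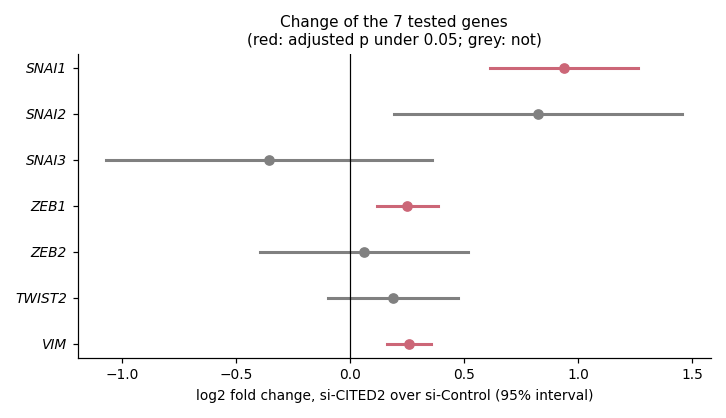
Log2 fold change of the 7 tested genes, libraries labelled si-CITED2 over si-Control, with 95% intervals. The intervals of SNAI1, SNAI2, ZEB1 and VIM lie above 0, and those of SNAI1, ZEB1 and VIM belong to an adjusted p under 0.05.

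Ratios of 2 genes in the same library do not depend on the scaling between libraries. VIM to CDH1, mesenchymal filament against epithelial cadherin, was 10.5, 8.56 and 8.53 in si-Control and 16.7, 14.8 and 15.5 in the libraries labelled si-CITED2. The groups did not overlap, and the ratio was 1.71-fold higher (0.77 on the log2 scale). ZEB1 to CDH1 was 0.289, 0.245 and 0.254 against 0.441, 0.417 and 0.478, a 1.70-fold difference, and again no library of one group reached the range of the other. The CDH1 ratios share that denominator, whose log2 fold change (-0.52) was larger in size than those of VIM (0.26) and ZEB1 (0.25). They are therefore not separate readings of VIM and ZEB1. ZEB1 to ESRP1, the latter a splicing regulator of the epithelial state that ZEB1 is known to repress, was 3.94, 3.61 and 3.13 against 5.07, 5.69 and 5.93, a 1.56-fold difference without overlap. For each of these 3 ratios the exact two-sided permutation p was 0.1, the smallest that 3 against 3 libraries allow, so none can pass 0.05. VIM to KRT18 (2.62, 2.67 and 2.54 against 2.64, 2.84 and 2.79; p = 0.2 in the exact permutation test) and VIM to KRT8 (1.65, 1.70 and 1.61 against 1.63, 1.71 and 1.68; p = 0.7) overlapped. Both keratins, the filament proteins of simple epithelia, were themselves higher in the libraries labelled si-CITED2. In all, 8 ratios were computed, and with 0.1 as the smallest p no adjustment over them can bring one past 0.05.

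**Figure D4:**
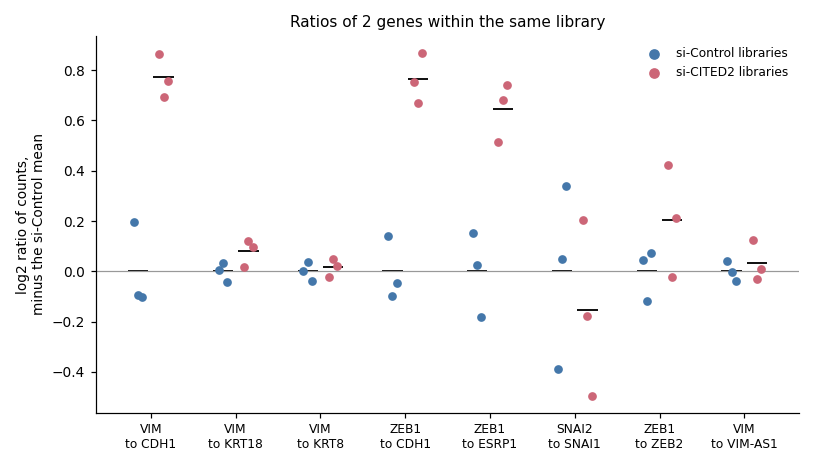
Log2 ratio of the counts of 2 genes in each library, minus the si-Control mean of that ratio, with lines at the group means. The libraries labelled si-CITED2 lie apart from si-Control for VIM to CDH1, ZEB1 to CDH1 and ZEB1 to ESRP1, and overlap it for the other pairs.

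The targets of these repressors were read from a list of epithelial genes. Of 18 tested, 8 fell (44.4%, against 8.09% of all tested genes), 1 rose and 9 did not pass, and the median log2 fold change was -0.16. CDH1 stood at 125, 146 and 147 CPM in si-Control and 93.9, 102 and 96.7 CPM in the libraries labelled si-CITED2 (log2 fold change -0.52 ± 0.0627 SE, adjusted p = 1.67e-05). TJP3 (-0.80, adjusted p = 0.000148) and MUC1 (-0.62, adjusted p = 0.000792) fell most, and EPCAM, CLDN3, DSP, PKP3 and LLGL2 also fell. CDH3, P-cadherin, was the 1 that rose (0.80, adjusted p = 2.47e-09). Of 12 mesenchymal genes tested, 5 rose (41.7%, against 9.36% of all tested genes), none fell (against 8.09%) and 7 did not pass, with a median of 0.45. TAGLN, transgelin, an actin-binding protein (2.92, adjusted p = 5.42e-10), rose with a larger log2 fold change than VIM. Among those that did not pass, S100A4 was lower without overlap between groups (-0.59, edgeR adjusted p = 0.0778). LOX (0.57, edgeR adjusted p = 0.126) and COL1A1 (0.32, edgeR adjusted p = 0.105) were higher without overlap. FN1, fibronectin, overlapped between groups (0.17, adjusted p = 0.345), and CDH2, N-cadherin, was too low to judge, with 3, 5 and 4 counts against 2, 4 and 2. VIM and SNAI1 rose in libraries in which fibronectin did not pass the test and N-cadherin was near the floor. The paper reports that CITED2 raised mesenchymal and lowered epithelial markers in PC3 and DU145 cells, by immunoblot and by RT-qPCR of SNAIL and E-CAD. Those cells were given CITED2 or siRNA against it, and knocking down nucleolin (NCL) weakened the effects. From RNA-seq of PC3 cells under CITED2 siRNA, the paper also reports metastasis-related gene sets as more enriched in control cells. Gene sets were not tested here. Here SNAI1 was higher and CDH1 lower in the libraries labelled si-CITED2, which is the opposite direction for both genes. Which reading holds was not tested.

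Fibroblast markers, markers of another cell type that makes vimentin, were read in the same libraries. Of the 8 markers 7 were too low to test, and the 1 tested, COL1A1, was not called. The summed level of the 8 was 5.70 to 6.14 CPM in si-Control and 7.59 to 7.91 CPM in the libraries labelled si-CITED2, most of it COL1A1. Of the untested markers, DCN and LUM were at 0 in 5 of 6 libraries each. PDGFRA, a receptor of fibroblasts, was counted 1, 1 and 2 times across si-Control libraries and 11, 8 and 7 times across those labelled si-CITED2, without overlap (depth-corrected ratio 7.51, exact 95% interval 2.61 to 29.6, counting error only). THY1 held 2, 5 and 4 against 18, 0 and 3 counts, and COL1A2, COL3A1 and PDGFRB overlapped as well. The part of these markers in the change of VIM was not tested. Leukocyte and endothelial markers were summed at 137 to 147 CPM against 125 to 148 CPM, most of it CD68. Of these 8 markers 6 were too low to test, and the 2 tested, CD68 and LYZ, were not called. Among the untested, CDH5, the cadherin of endothelial cells, was counted 7, 9 and 4 times across si-Control libraries and 2, 1 and 0 times across those labelled si-CITED2 (ratio 0.173, exact 95% interval 0.033 to 0.585), and PTPRC held 2, 2 and 1 counts against 0 in each.

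Other transcription factors were read beside the set, where again 9.36% of all tested genes were called higher and 8.09% lower. Among close relatives, 2 of 3 tested rose: MSC, musculin, a basic helix-loop-helix factor, from 0.679, 0.854 and 0.799 CPM to 2.94, 2.64 and 3.40 CPM (log2 fold change 1.93, adjusted p = 1.9e-05), and PRRX2, the paralog of PRRX1 (0.32, adjusted p = 0.0326), whose call was lost without si-Control replicate 1 or 3 or si-CITED2 replicate 1 or 2 (0.25 to 0.31). Of 11 other factors that favour EMT, 4 rose, 1 fell and 6 did not pass, with SOX4 (1.24, adjusted p = 1.42e-08) and ETS1 (1.03, adjusted p = 1.04e-09) rising most and ID1, an inhibitor of helix-loop-helix factors, falling (-0.70, adjusted p = 5.37e-05). Of 10 factors that hold the epithelial state, 4 fell, 1 rose and 5 did not pass. ESRP2 (-0.35, adjusted p = 0.00463) and ESRP1 (-0.40, adjusted p = 0.0314) fell, ESRP1 losing its call without replicate 2 or 3 of either group (-0.43 to -0.30), and FOXA1, a pioneer factor of luminal prostate cells, rose (0.35, adjusted p = 0.000748). GRHL2, which opposes ZEB1, was near the floor, with 3, 2 and 1 counts against 0, 2 and 2. The number of this group that fell was 1 without si-CITED2 replicate 2 and 2 without si-Control replicate 2, si-Control replicate 3 or si-CITED2 replicate 1.

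The genes for proteins that act with or on the repressors were read next, to be set against the same 9.36% higher and 8.09% lower of all tested genes. Of 16 corepressors and chromatin partners of SNAI and ZEB proteins, 1 rose, 4 fell and 11 did not pass. LOXL2, a lysyl oxidase reported to stabilise Snail, rose (0.55, adjusted p = 2.42e-06), and SUV39H1 (-0.56, adjusted p = 0.00198) and EHMT2 (-0.27, adjusted p = 0.00178), histone H3 lysine methyltransferases, fell. The number that fell was 2 without si-Control replicate 2 or si-CITED2 replicate 3. Of 16 kinases and ubiquitin ligases that act on SNAI, ZEB and TWIST proteins, 1 rose, GSK3B (0.24, adjusted p = 0.00672), which marks Snail for degradation, and 15 did not pass. Of 20 filament genes and partners of vimentin, 3 rose, 6 fell and 11 did not pass. KRT8 (0.24, adjusted p = 0.0026) and INA (0.45, adjusted p = 0.0366) were among those that rose, INA losing its call with DESeq2 and without si-Control replicate 1 or 2 or si-CITED2 replicate 2 or 3 (0.35 to 0.47), and 1 gene rose without si-Control replicate 2. PLK1 (-0.46, adjusted p = 5.94e-06) and AURKB (-0.43, adjusted p = 2.78e-05), mitotic kinases that phosphorylate vimentin, fell most.

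**Figure D5:**
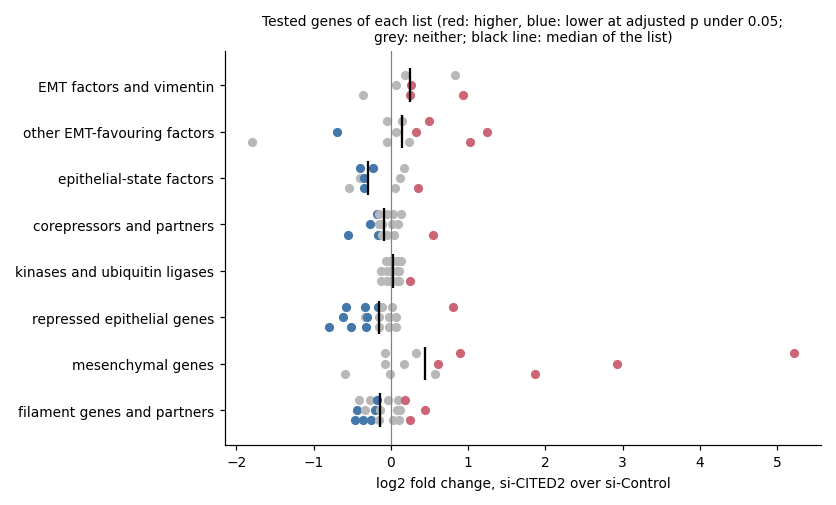
Log2 fold change of the tested genes of each list, libraries labelled si-CITED2 over si-Control, 1 point for each gene, in red where called higher and blue where called lower, with a line at the list median. Median values are 0.25 for the set, 0.45 for mesenchymal genes and -0.16 for the repressed epithelial genes.

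Genes whose levels tracked those that rose were ranked by Pearson's r of log2 CPM over the 6 libraries, a description that the 2 groups shape. The 3 most like SNAI1 were ANXA8 (0.999), NRAS (0.998) and TGFBR1 (0.998). The 3 most like ZEB1 were TNFSF9 (0.997), KLF4 (0.995) and WIPF1 (0.993), and those most like VIM were PLD3 (0.999), NREP (0.997) and SRF (0.997).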

How the data were processed

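RNA-seq libraries of PC3 cells (SMARTer mRNA-seq kit) were analysed, 3 for each group, with groups and replicate numbers taken from the labels. For each library the authors deposited a file of unnormalized read counts by gene symbol, and the submitters' processing notes name TopHat, edgeR and hg19. The counter, annotation and strand setting are not given in the sources used here, so reads shared by near-identical copies or overlapping genes are uncertain. The files list 25737 rows for 24462 symbols. Each symbol was represented by its row of most reads, and the 1275 others held 0.0821% of counts.

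Counts were filtered with filterByExpr, which kept 16314 genes, normalized by TMM (factors 0.993 to 1.01) and tested with the quasi-likelihood test of edgeR 4.0.16 in R 4.3.3, unpaired, with Benjamini-Hochberg adjustment over all fitted genes. SEs were derived from the F statistic and the common biological coefficient of variation was 0.0614. For genes under the filter, summed counts were compared by an exact binomial interval that covers counting error only. Ratios used counts plus 0.5. Levels per length used GENCODE 29 transcripts, for lengths only.

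The members and lists were chosen with earlier results of these data known. Named from each list were the genes called with the 2 largest rises and 2 largest falls, and CDH1, CDH2, ESRP1, FN1, GRHL2 and CITED2. EPCAM, CLDN3, DSP, PKP3, LLGL2 and KRT18 were named beyond that rule after their values were seen. So were S100A4, LOX and the marker genes (PDGFRA and CDH5 among them). Lists are described by counts, with no set test. Same-numbered libraries did not deviate together, so numbers were not treated as pairs. Chi-square values per degree of freedom within groups were 2.80 to 7.14, so libraries of a group differed beyond sampling noise. The scripts were tested on simulated data. Alternatives were DESeq2 1.42.0, other scaling, other filters, summed symbols, a replicate block and leaving out each library. The miR-200c and miR-205 host genes were not analysed here, and some listed genes are not reported here.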

Additional observations from a re-analysis of the deposited data

How the results depend on the processing

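Over 13 alternative settings SNAI1 and VIM kept their direction and their call, and SNAI2, SNAI3 and TWIST2 kept their direction and stayed outside the threshold. The number of the 9 genes called higher was 2 to 3 and the number called lower 0 throughout. Over the settings that leave out 1 library, ZEB1 had a log2 fold change of 0.20 to 0.28, and ZEB2 one of -0.047 to 0.18, below 0 without si-CITED2 replicate 2. The log2 difference of the VIM to KRT8 ratio was -0.0046 to 0.035, that of SNAI2 to SNAI1 -0.35 to 0.016, and that of VIM to VIM-AS1, an alternative chosen after seeing the data, -0.0099 to 0.068. The causes of these shifts were not tested. With the replicate number as a block, SNAI1 had a log2 fold change of 0.94 (adjusted p = 0.000777), ZEB1 0.25 (adjusted p = 0.0200), VIM 0.26 (adjusted p = 0.00135) and SNAI2 0.82 (adjusted p = 0.104), and 1405 genes were called higher and 1154 lower, against 1527 and 1319 without it; the block changed no call among the 9 genes. Deviations of same-numbered libraries correlated at -0.0380 to 0.0336, and 1 of 3 numbers correlated best with itself. Among the lists, 1 relative rose without si-Control replicate 1 or 3 or si-CITED2 replicate 1 or 2, 2 other EMT factors fell without si-Control replicate 2 or with no filter, 1 mesenchymal gene fell without si-CITED2 replicate 3 or with no filter, and 1 kinase or ligase fell without si-Control replicate 1. Depth limits TWIST1 and PRRX1, which had 1 to 7 counts a library, and SNAI2 and SNAI3, which had 12 to 40.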

Other observations

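TCF4, the E protein that partners TWIST factors, is a gene whose spread is set by 1 library, and it was chosen after its values were seen. Its level was 0.679, 0.239 and 5.25 CPM in si-Control and 0.412, 0.852 and 0.326 CPM in the libraries labelled si-CITED2. The log2 fold change of -1.80 ± 0.792 (SE) did not pass the test (edgeR adjusted p = 0.141), and the groups overlapped.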
